A study of Mus musculus with 12 samples.

Results

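Complement is a cascade of secreted proteins that marks cells and debris for removal. C1q, a protein built from the chains C1qa, C1qb and C1qc, binds its target together with the proteases C1r and C1s. C1s cleaves C4 and C2, and the fragments join into an enzyme that cleaves C3, the protein on which all routes of activation meet. Factor B (Cfb) forms the C3-cleaving enzyme of the alternative route, and the C1 inhibitor (Serping1) blocks C1r and C1s. The liver makes most complement of the plasma, while macrophages, fibroblasts and tumor cells also transcribe parts of it, and C1q in tissue is made mainly by macrophages.

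The genes described here are 9 complement components, C1qa, C1qb, C1qc, C1ra, C2, C4b, C3, Cfb and Serping1, chosen by their symbols from the 18211 genes of the expression table. The table came from bulk RNA sequencing of subcutaneous tumors of MC38 cells, a mouse colorectal adenocarcinoma line. The tumors grew in female C57BL/6 mice that were purchased at 5 weeks of age, with 3 tumors in each of 4 groups. Treatment groups were formed 7 days after the cells were injected. Vehicle alone was given in the CK group. PB-020 mice received PB-020, an oral blocker of the receptor for IGF-1, at 50 mg/kg per day. Anti-PD-1 mice received 200 μg of an antibody against the checkpoint receptor PD-1 on days 9, 12, 15 and 18, and mice of the combination group received both. Tumor and host cells were sequenced together, so that in these data more cells of a type and more RNA per cell cannot be told apart.

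Depth differed little, with 16545394 to 17217035 expected counts in a library. Epithelial markers were low in these MC38 tumors, with 0 to 3 counts of Krt18 and 2 to 17 of Epcam in a tumor. The transcript of albumin (Alb), the main liver protein, was at 0 or 1 count in all 12 tumors. A pair of tumors stood apart. In CK tumor 3 the 8 neutrophil markers summed to 413 FPKM (fragments per kilobase, scaled to library size, a level corrected for gene length), against 6.12 to 34.1 in the other tumors, and the 5 adipocyte markers to 197 FPKM, against 28.5 to 62.6. In anti-PD-1 tumor 1 the 8 skeletal muscle markers summed to 530 FPKM, against 11.5 to 62.3, and the 12 macrophage markers to 1417 FPKM, against 522 to 922. The comparisons and correlations of the members below are also given without these tumors.

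In these tumors the C1q chains were by far the most abundant of the 9 transcripts, and they varied least. The chains together made up 75.7% to 91.0% of the summed FPKM of the 9 genes in a tumor. C2, C3, Cfb and Serping1 varied most and were higher on average in both groups given anti-PD-1. C1ra showed a smaller difference of the same sign, and C4b showed none that was stable. With all 12 libraries, the edgeR test described below called 0 of the 9 in either of these groups against CK. It called C2 alone in the comparison with against without anti-PD-1, averaged over PB-020 (adjusted p = 0.0226). In that average 11.8% of all genes were called as raised. Without anti-PD-1 tumor 1, the differences between anti-PD-1 and CK turned sign for C3, C4b and the C1q chains. All 9 transcripts were highest in anti-PD-1 tumor 1, and among the CK tumors all 9 were highest in CK tumor 3.

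On the mouse assembly GRCm38.p6 the C1q genes formed one cluster, with C1qb at chr4:136880126-136886200, C1qc at chr4:136889801-136892936 and C1qa at chr4:136895916-136898844. No other protein-coding gene lay between C1qb and C1qc, 3600 bases apart, or between C1qc and C1qa, 2979 bases apart. C2 (chr17:34862602-34882100) and Cfb (chr17:34856374-34862514) were 87 bases apart, and C4b (chr17:34728139-34743902) lay 112471 bases from Cfb in the same region. C3 (chr17:57203967-57228136), C1ra (chr6:124512621-124523440) and Serping1 (chr2:84765360-84775444) stood elsewhere. C1s1 encodes the other protease of C1, and the near ends of C1ra and C1s1 lay 6903 bases apart.

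RefSeq promoters were matched for C1qb, C1qc, C1ra and C3. Those of C3 and C1qb are shown because the RefSeq starts of C1qc and C1ra lie inside a longer annotated transcript. They were searched on both strands for 3 short motifs, GAS (TTCNNNGAA, the gamma-activated site), the core of ISRE (GAAANNGAA, the element of interferon regulatory factors) and CEBP (TTGCNNAA, the element of C/EBP factors). Each sequence holds 280 bases on the minus strand, ending just after the RefSeq start of transcription, and capitals mark a motif. The first spans chr17:57228107-57228386 and the second chr4:136886171-136886450.
C3: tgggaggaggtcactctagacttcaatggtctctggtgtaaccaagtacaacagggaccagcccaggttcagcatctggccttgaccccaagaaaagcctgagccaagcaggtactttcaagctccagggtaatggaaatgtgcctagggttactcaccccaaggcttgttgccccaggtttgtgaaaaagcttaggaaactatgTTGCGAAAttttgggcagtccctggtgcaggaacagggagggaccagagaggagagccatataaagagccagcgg
C1qb: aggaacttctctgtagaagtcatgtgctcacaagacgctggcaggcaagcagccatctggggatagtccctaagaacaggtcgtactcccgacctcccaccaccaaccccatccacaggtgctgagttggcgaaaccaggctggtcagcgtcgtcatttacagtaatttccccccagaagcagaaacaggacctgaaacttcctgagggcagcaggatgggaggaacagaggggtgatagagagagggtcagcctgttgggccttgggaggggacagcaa

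The capitals in C3 mark a CEBP match that begins 45 bases before the start, and the C1qb window held none of the 3 motifs. Among all 32851 RefSeq promoters, 10.8% held the CEBP letters, 8.3% the GAS letters and 8.56% those of the ISRE core. A match of letters is a description and not evidence of binding.

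The C1q chains differed little between groups. C1qa was 216, 206 and 265 FPKM in the CK tumors and 208, 178 and 218 FPKM in the PB-020 tumors. It was 377, 210 and 197 FPKM in the anti-PD-1 tumors and 248, 274 and 251 FPKM in the combination tumors. One anti-PD-1 tumor therefore lay above all others, the other two lay within the range of the CK and PB-020 tumors, and the combination tumors were close together. C1qb had means of 254 ± 37.4 FPKM (SD, n = 3) in CK, 239 ± 23.0 under PB-020, 266 ± 86.9 under anti-PD-1 and 284 ± 25.4 under the combination. C1qc had means of 207 ± 28.5, 183 ± 15.3, 216 ± 82.5 and 213 ± 19.9 FPKM in the same order. In the order of the means, neighbouring groups overlapped for both chains. For all 3 chains the combination tumors lay above all PB-020 tumors, as they did in 14.5% of all genes. For C1qc the margin was small, with a lowest combination tumor of 193.4 FPKM and a highest PB-020 tumor of 192.3.

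The chains also kept close proportions to one another. The ratio of C1qb to C1qa in FPKM lay between 0.971 and 1.20 over the 12 tumors, and that of C1qc to C1qa between 0.780 and 0.942. Over all tumors C1qa spanned 2.12-fold, C1qb 1.78-fold and C1qc 1.88-fold. The macrophage markers summed to 691 to 922 FPKM in CK, 523 to 671 under PB-020, 522 to 1417 under anti-PD-1 and 693 to 810 under the combination, and like the C1q chains they were highest in anti-PD-1 tumor 1. All 12 macrophage markers were detected, and their part in the C1q levels was not tested.

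C1ra, a C1r gene of the mouse, was 21.2, 16.99 and 33.6 FPKM in CK and 20.4, 18.7 and 21.3 in PB-020. It was 43.4, 24.4 and 27.7 FPKM in anti-PD-1 and 23.7, 28.1 and 31.3 in the combination. All 6 tumors given anti-PD-1 lay above the PB-020 tumors, and CK tumor 3 lay above 5 of the 6. The related gene C1rb held at most 2.59 counts in a tumor. Reads common to C1ra and C1rb were divided by the authors' estimate, so that this count does not show how many were shared.

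C2, the substrate of C1s that supplies the protease of the classical C3 convertase, was the least abundant of the 9, with 33 to 330 counts in a tumor. It was 1.14, 0.78 and 2.04 FPKM in CK and 1.02, 1.26 and 1.28 in PB-020. It was 7.80, 1.63 and 2.04 FPKM in anti-PD-1 and 3.18, 3.99 and 3.16 in the combination. Every combination tumor lay above every CK and PB-020 tumor, and every anti-PD-1 tumor lay above the PB-020 tumors. C2 spanned 10-fold over the 12 tumors, the widest range of the 9.

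C4b, the other substrate of C1s, was 10.3, 8.89 and 17.6 FPKM in CK and 12.1, 5.81 and 15.1 in PB-020. It was 23.3, 8.67 and 8.90 FPKM in anti-PD-1 and 10.3, 10.6 and 11.1 in the combination. All groups overlapped, and no order of the groups stood out from their spread. C4b has a close copy, C4a, which held 11.4 to 23.8 counts in a tumor beside 516 to 2070 for C4b. Reads common to both genes were divided by the authors' estimate, and their values are uncertain to that extent.

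C3 was 9.17, 8.22 and 34.3 FPKM in CK and 14.3, 10.2 and 14.6 in PB-020. It was 63.5, 12.7 and 20.6 FPKM in anti-PD-1 and 33.2, 29.7 and 32.8 in the combination. CK tumor 3 lay just above all 3 combination tumors, while the other CK tumors lay far below them. The combination tumors were the closest together, at 31.9 ± 1.88 FPKM (SD, n = 3).

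Cfb was 10.6, 7.30 and 33.1 FPKM in CK and 13.8, 8.29 and 16.5 in PB-020. It was 46.4, 19.6 and 18.9 FPKM in anti-PD-1 and 29.4, 19.9 and 21.8 in the combination. As with C3, CK tumor 3 lay above all combination tumors. CK tumor 3 lay above 5 of the 6 tumors given anti-PD-1. For Cfb, but not for C3, the other 5 tumors without anti-PD-1 lay below all 6. That split sets CK tumor 3 aside after its value was seen, and its share over all genes was not computed.

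Serping1, the inhibitor of C1r and C1s, was 21.1, 17.2 and 49.96 FPKM in CK and 21.3, 26.5 and 26.9 in PB-020. It was 154, 27.4 and 42.1 FPKM in anti-PD-1 and 54.7, 64.0 and 53.4 in the combination. Every combination tumor lay above every CK and PB-020 tumor, and anti-PD-1 tumors 2 and 3 lay between PB-020 and the combination. The ratio of Serping1 to C1ra in FPKM ran from 0.993 to 3.55, so that the inhibitor varied more than the protease.

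**Figure D1:**
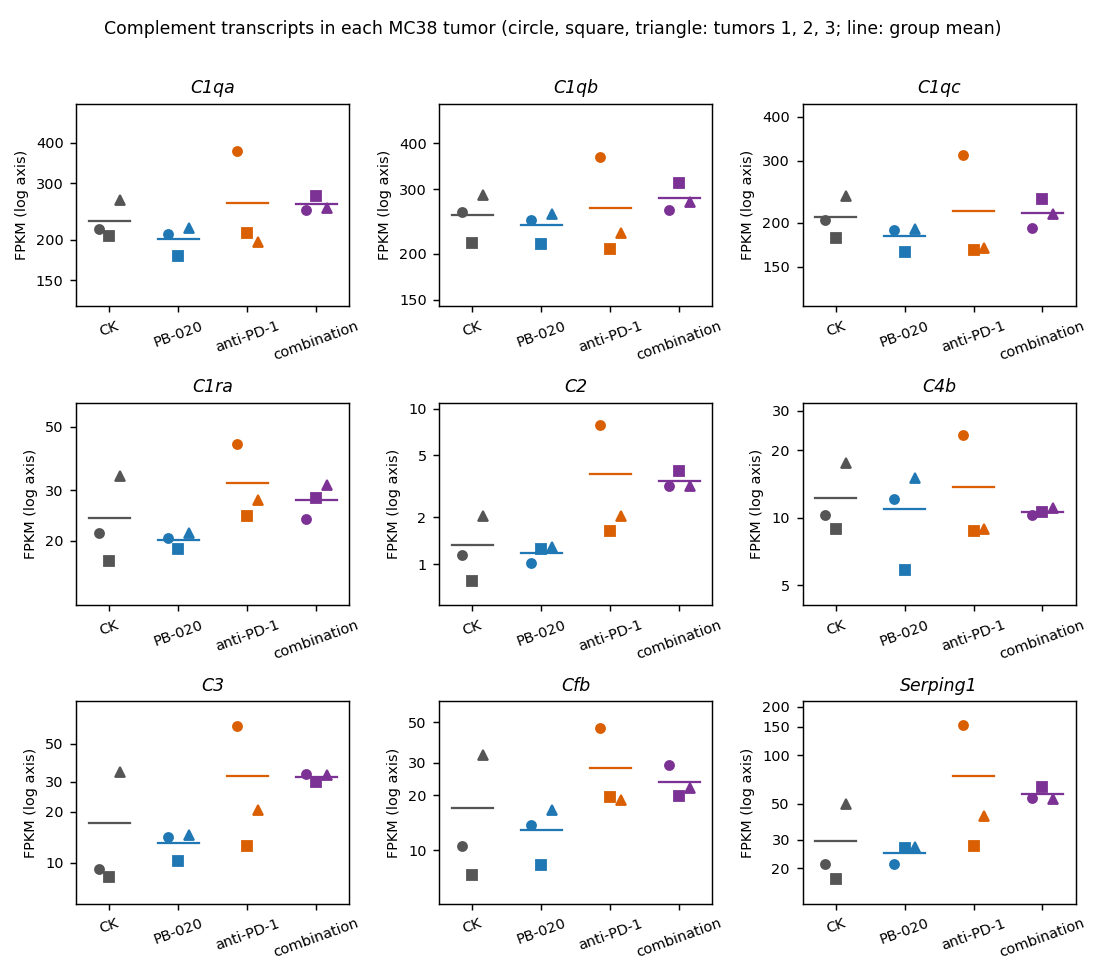
Level of each complement transcript in FPKM (vertical log axis) in the 3 tumors of each group (symbols for tumors 1, 2 and 3) with the group mean as a line. The C1q chains span 1.78- to 2.12-fold over the 12 tumors, while C2 spans 10-fold and Serping1 8.96-fold, and tumor 1 of anti-PD-1 is the highest in all 9 panels.

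With all tumors the levels of the 9 transcripts were correlated from tumor to tumor. Pearson's r between log2 CPM (counts scaled to library size) of 2 members, over the 12 libraries and 36 pairs, lay between 0.51 and 0.98 with a median of 0.83. For deviations from the group means it lay between 0.71 and 0.99 with a median of 0.87. C2 and Serping1 were the closest pair (r = 0.98) and C2 and C4b the least close (r = 0.51). These points share their libraries, and the pair of tumors that stood apart takes part in every r. Over the 10 other libraries r lay between 0.12 (C4b and Serping1) and 0.99 (C2 and Serping1) with a median of 0.66. For deviations from the group means it then lay between -0.03 and 0.94 with a median of 0.46, lower than with all 12. In CK tumor 3, C3 was 3.95 times and Cfb 3.70 times the mean of the other CK tumors, against 1.22 to 1.26 times for the C1q chains. In anti-PD-1 tumor 1, Serping1 was 4.43 times and C2 4.25 times the mean of the other tumors of its group, against 1.69 to 1.85 times for the C1q chains.

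Among the 13554 other genes tested, those most like each member were found by r of log2 CPM over the 12 libraries. C1qa was most like Unc93b1 (r = 0.96), an adaptor of nucleic acid-sensing Toll-like receptors, then Litaf and Fermt3. C1qb was most like Fcgr3 (r = 0.96), an Fc receptor, then Tmem86a and Adam23. C1qc was most like Litaf (r = 0.97), then Ntrk2 and Apoe, the last of which is also on the macrophage list. C2 was most like Ptprc (r = 0.99), the CD45 antigen of leukocytes, then Ctsc and Irf5. Cfb was most like Lgals3bp (r = 0.99), then Uba7 and Tmem229b, and Serping1 was most like Slc7a8 (r = 0.98), then Slc15a3 and Cd300ld. C1ra was most like Rnf149 (r = 0.97), then Dram1 and Il3ra. C3 was most like Mmp25 (r = 0.96), then Ddx3y and Ppm1h, and C4b was most like Tmem106a (r = 0.90), then Stat3 and Ntrk2. Over the 10 libraries without the pair of tumors, r for the gene named first was 0.998 for C2, 0.98 for Cfb, 0.97 for C3 and Serping1, 0.95 for C1ra, 0.93 for C1qb, 0.92 for C1qc, 0.90 for C1qa and 0.75 for C4b.

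**Figure D2:**
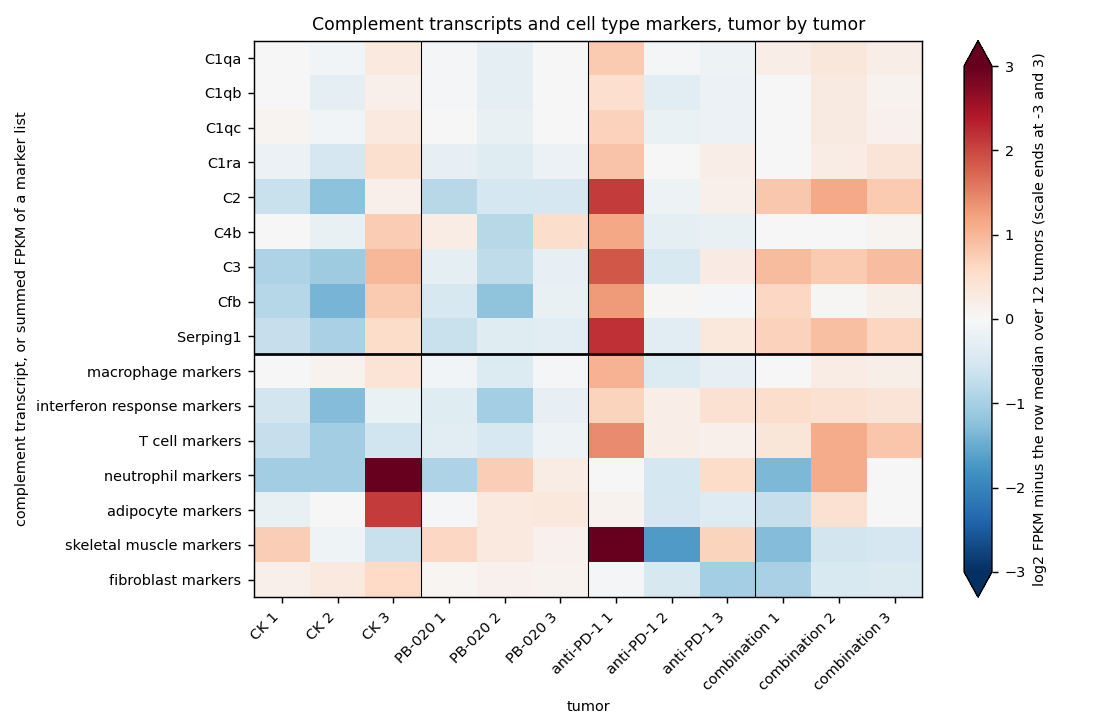
Level of each complement transcript, and summed FPKM of each marker list, as the log2 difference from the row's median over the 12 tumors (color), with tumors in columns. CK tumor 3 is high for C3, Cfb and C4b beside the neutrophil (413 FPKM) and adipocyte (197 FPKM) lists, and anti-PD-1 tumor 1 is high in all 9 transcripts beside the skeletal muscle list (530 FPKM).

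Each comparison was made with edgeR's quasi-likelihood test on the expected counts, in one model of all 12 libraries, and a gene was called at a Benjamini-Hochberg adjusted p under 0.05 over the 13563 genes tested. All 9 members passed the filter on low counts. Nothing in the sources used here says that tumors were processed in separate batches, and the p-values measure the spread between these tumors.

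The effect of PB-020 alone was read from PB-020 against CK. All 9 members were slightly lower in PB-020, by a median of -0.17 on the log2 scale against -0.0038 over all genes, and edgeR called 0 of the 9, with 0 at an unadjusted p under 0.05, 0 by DESeq2 or limma and 0% of all genes called. Without CK tumor 3 the sign turned for 7 of the 9. C3 then had a log2 change of 0.63 in place of -0.34, and Cfb 0.53 in place of -0.37, with none called.

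The effect of anti-PD-1 alone was read from anti-PD-1 against CK. All 9 members were higher in anti-PD-1, by a median of 0.43 on the log2 scale, with the largest values for C2 (1.55 ± 0.56, SE) and Serping1 (1.36). EdgeR called 0 of the 9, beside 8.26% of all genes, 4.18% raised and 4.08% lowered. C2 alone had an unadjusted p under 0.05 (edgeR adjusted p = 0.118), and DESeq2 called C2 (adjusted p = 0.0142, with 0.0142 to 0.334 over 21 alternatives). Without anti-PD-1 tumor 1, C2 had 0.51 and Serping1 0.28 on the log2 scale, and the sign turned for C3 (-0.04 in place of 0.92), C1qa (-0.14), C1qb (-0.20), C1qc (-0.27) and C4b (-0.45). Without anti-PD-1 tumor 2, edgeR called C2 (log2 change 1.90, adjusted p = 0.0385), and without CK tumor 3 and anti-PD-1 tumor 1 it also called C2 (0.95, 0.0469).

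The effect of both drugs was read from the combination against CK. Of the members 8 were higher in the combination and C4b was lower, with a median of 0.23 on the log2 scale. C2 had 1.41 (adjusted p = 0.112), Serping1 0.99 (0.313) and C3 0.92 (0.382) by edgeR, which called 0 of the 9 beside 17.9% of all genes, 8.35% raised and 9.6% lowered. C2 alone had an unadjusted p under 0.05, and DESeq2 called it (adjusted p = 0.0193). A fit of only these groups also called C2 by edgeR (adjusted p = 0.0127), and over 21 alternatives its adjusted p ran from 0.000232 to 0.291. C2 and Serping1 were the only members whose combination tumors all lay above the 3 CK tumors, 2 of 9 beside 17.9% of all genes.

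This comparison turned on the tumors that stood apart. Without anti-PD-1 tumor 1, whose spread enters the shared model, C2 was called at the same log2 change of 1.41 (edgeR adjusted p = 0.00263). Without CK tumor 3 and anti-PD-1 tumor 1, left out after the data were seen, edgeR called 6 of the 9 as raised, beside 11% of all genes raised. They were C3 (log2 change 1.90, adjusted p = 0.00299), C2 (1.86, 0.000232), Serping1 (1.60, 0.00229), Cfb (1.42, 0.0282), C1ra (0.55, 0.00922) and C1qa (0.30, 0.0276). The combination tumors then lay above the CK tumors left in 8 of the 9, all but C1qc, beside 24.6% of all genes. Tumors were left out for their high values, which lowers the spread that the test sees. All 9 members were highest among the CK tumors in CK tumor 3, so that leaving it out also lowers the CK means. The log2 changes against CK rise with that choice, and these counts are not independent support for a change.

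The effect of adding anti-PD-1 to PB-020 was read from the combination against PB-020, neither of which holds a tumor that stood apart. All 3 combination tumors lay above all 3 PB-020 tumors in 8 of the 9 members, all but C4b, beside 14.5% of all genes. The median log2 change was 0.46, with 1.54 for C2, 1.26 for C3, 1.20 for Serping1 and 0.87 for Cfb. In the model of all 12 libraries edgeR called 0 of the 9, beside 3.35% of all genes. C2 alone had an unadjusted p under 0.05 (edgeR adjusted p = 0.152), and DESeq2 called C2 (adjusted p = 0.0213, with 6.17e-05 to 0.358 over 21 alternatives).

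When only the 6 libraries of these groups were fitted, edgeR called 5 of the 9 as raised, beside 6.14% of all genes raised. They were Serping1 (adjusted p = 9.69e-06), C2 (6.17e-05), C3 (0.00165), C1ra (0.00573) and C1qa (0.0125), the last with a log2 change of 0.36. The same 5 were called without CK tumor 3 and anti-PD-1 tumor 1, beside 6.03% of all genes raised. That pair was left out after the data were seen, which lowers the spread in the shared model. Without anti-PD-1 tumor 1 alone, C2 (edgeR adjusted p = 0.0049) and C1qa (0.032) were called, beside 4.41% of all genes raised.

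The effect of adding PB-020 to anti-PD-1 was read from the combination against anti-PD-1, and no member was called. EdgeR and DESeq2 called 0 of the 9, with 0 at an unadjusted p under 0.05, and edgeR called 0% of all genes. The log2 changes lay between -0.37 (Serping1) and 0.09 (C1qb), and the 95% interval for C2 ran from -1.34 to 1.05. Without anti-PD-1 tumor 1 the signs of 7 members turned and all 9 were higher in the combination, with log2 changes from 0.08 (C1ra) to 0.96 (C3), 0.90 for C2 and 0.71 for Serping1, and none called by edgeR. With all 12 libraries the 3 combination tumors lay above all 3 anti-PD-1 tumors in 0 of the 9, beside 5.12% of all genes. With CK tumor 3 and anti-PD-1 tumor 1 left out, they lay above both anti-PD-1 tumors left in 8 of the 9, all but C1ra, beside 13.3% of all genes. Anti-PD-1 tumor 1 was the highest tumor for all 9 members and was left out after the data were seen. The count of 8 is therefore not independent support for a change. The interaction, which asks whether the drugs together differ from the sum of their log2 changes, also had 0 of the 9 called by edgeR and by DESeq2, with 0 at an unadjusted p under 0.05 and 0% of all genes called. Its values lay between -0.22 (C4b) and 0.34 (C3), and these intervals are too wide to show that the drugs act independently on any member.

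The groups were also compared as 6 tumors with against 6 without anti-PD-1, averaged over PB-020. The interaction test is too imprecise to show that the change was alike with and without PB-020. All 9 members were higher with anti-PD-1, by a median of 0.44 on the log2 scale. EdgeR called C2 alone (1.54 ± 0.40, SE, adjusted p = 0.0226), beside 24.2% of all genes, 11.8% raised and 12.3% lowered. Serping1 had 1.28 (adjusted p = 0.0739), C3 1.09 (0.141), Cfb 0.82 (0.192) and C1ra 0.44 (0.117) by edgeR, while the C1q chains had 0.15 to 0.28. DESeq2 called Serping1 as well (adjusted p = 0.0186, with 0.00218 to 0.149 over 20 alternatives).

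The call of C2 was at the threshold. It was lost by edgeR without CK tumor 1 (adjusted p = 0.0510), CK tumor 2 (0.0536), PB-020 tumor 1 (0.0578) or PB-020 tumor 3 (0.0510), at log2 changes of 1.41 to 1.57, and its lowest adjusted p over 20 alternatives was 7.26e-05, by DESeq2. Serping1 was called without anti-PD-1 tumor 2 (adjusted p = 0.0308). Without CK tumor 3 edgeR called 5 of the 9 (C2, C1ra, Cfb, C3 and Serping1), beside 10.8% of all genes raised. The same 5 were called without CK tumor 3 and anti-PD-1 tumor 1, beside 11.3% of all genes raised. CK tumor 3 was the highest CK tumor for every member, so that these counts are not independent of the choice of tumors.

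**Figure D3:**
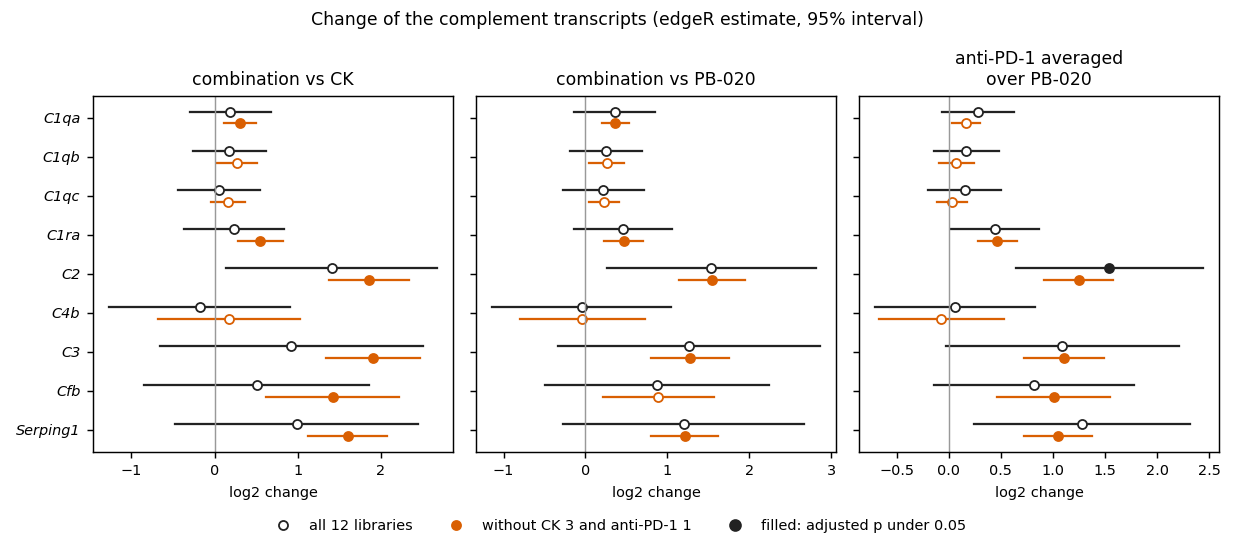
Log2 change of each complement transcript (points, with 95% intervals as lines) in 3 comparisons, from all 12 libraries (black) and without CK tumor 3 and anti-PD-1 tumor 1 (orange), with filled points at an adjusted p under 0.05. With all libraries C2 alone is filled, for anti-PD-1 averaged over PB-020 (1.54), and without the pair 6, 5 and 5 transcripts are filled from left to right. The pair was left out after the data were seen, for its high values.

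Other transcripts also differed between tumors with and without anti-PD-1. Of the 16 interferon-response markers, a program that includes Irf1 and Cxcl9, edgeR called 11 as raised with anti-PD-1 averaged over PB-020. Their summed level was 459 to 997 FPKM in CK, 557 to 965 under PB-020, 1294 to 1817 under anti-PD-1 and 1475 to 1635 under the combination, so that the groups with and without anti-PD-1 did not overlap. All 9 T cell markers tested were raised as well, and their sum was 13.6 to 18.5 FPKM in CK, 20.1 to 25.4 under PB-020, 31.2 to 75.2 under anti-PD-1 and 36.5 to 60.96 under the combination. Of the 12 macrophage markers 1 was raised, and these marker counts stood beside 11.8% of all genes raised. The part of these transcripts in the levels of the members was not tested.

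Beyond the members, 51 other complement genes were listed by role, of which 24 were tested. Among those too low to test were C1rb, C1s2, C7, C8g, C9, Cd59b, Cfi, Colec10, Colec11, Cpn1, Cpn2, Cr2, Csmd1, Csmd2, Csmd3, Fcnb, Masp2 and Susd4. Mbl1, Mbl2, C4bp, Cd55b, Cpb2, C8a and C8b had no row under these symbols in the expression table used here. With PB-020 against CK edgeR called 0 of the 24, with 1 at an unadjusted p under 0.05 and 0 by DESeq2. With anti-PD-1 against CK it called 1 raised and 2 lowered, 3 of 24 beside 8.26% of all genes. With the combination against CK it called 1 raised and 3 lowered, 4 of 24 beside 17.9% of all genes. Averaged over PB-020 it called 5 raised and 7 lowered, 12 of 24 beside 24.2% of all genes.

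C1s1, the partner protease of C1ra, was the 1 raised in both comparisons with CK. It was 24.3, 18.5 and 30.5 FPKM in CK and 21.5, 26.4 and 24.7 in PB-020. It was 63.2, 34.5 and 47.4 FPKM in anti-PD-1 and 35.7, 47.9 and 46.2 in the combination. Every tumor given anti-PD-1 lay above every tumor that was not, and the log2 change averaged over PB-020 was 0.92 ± 0.17 (SE, edgeR adjusted p = 0.00500). Also raised in that average were the integrin chains of the complement receptors, Itgb2 (0.59) and Itgax (0.46), Cd59a (1.14), which blocks the terminal pore, and the collectin Colec12 (0.35). Itgam, the partner of Itgb2 in complement receptor 3, had 0.19 and was not called.

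Several regulators that restrain C3 were called as lower with anti-PD-1. Cd55, which speeds the decay of the C3 convertases, was 11.3, 11.9 and 13.7 FPKM in CK, 14.8, 12.7 and 15.2 in PB-020, 8.91, 10.5 and 8.76 in anti-PD-1, and 6.51, 7.81 and 7.18 in the combination. The tumors with and without anti-PD-1 did not overlap, and the averaged log2 change was -0.68 ± 0.09 (SE, edgeR adjusted p = 0.000617). The averaged change was -0.47 for Cd46, a cofactor for C3b cleavage, and -0.26 for Cr1l, the membrane regulator Crry. The ends of Cd46 and Cr1l overlap on the assembly, and whether strand was used in counting is not given in the sources used here.

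Vsig4, the macrophage receptor for C3 fragments, had the largest change of the 12 called. It was 0.77, 1.01 and 0.65 FPKM in CK, 0.69, 0.60 and 1.15 in PB-020, 0.14, 0.14 and 0.05 in anti-PD-1 and 0.09, 0.09 and 0.18 in the combination. It held 13 to 25 counts in a tumor without and 1 to 4 with anti-PD-1, and the averaged log2 change was -2.75 ± 0.35 (SE, edgeR adjusted p = 0.000541). Vtn, which blocks the terminal complex, had -1.41, and the ficolin Fcna -0.58. Beside these, the summed fibroblast markers were 1710 to 2468 FPKM without and 799.8 to 1552 with anti-PD-1, and the part of this in the regulators was not tested.

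In the average over PB-020 without CK tumor 3 and anti-PD-1 tumor 1, edgeR called 6 as raised and 5 as lowered, beside 11.3% and 9.93% of all genes. Cd46 (-0.30, edgeR adjusted p = 0.0921) and Cr1l (-0.26, 0.0798) were then no longer called, and properdin (Cfp) was (0.37, 0.0332). The genes named above that were still called had -2.91 (Vsig4), -1.28 (Vtn), -0.78 (Fcna), -0.59 (Cd55), 0.27 (Colec12), 0.44 (Itgb2), 0.46 (Itgax), 0.91 (Cd59a) and 0.91 (C1s1). When 1 library was left out, the 12 called became 7 (CK tumor 2, PB-020 tumor 3 or combination tumor 3) or 6 (PB-020 tumor 1 or combination tumor 1). All genes called fell as well, from 24.2% to 15.7%, 16.3%, 19.6%, 15.2% and 16.7% in the same order. For anti-PD-1 against CK the 3 called became 1 without CK tumor 2 or anti-PD-1 tumor 3 and 5 without anti-PD-1 tumor 2. All genes called went from 8.26% to 0.996%, 1.73% and 13.8% in the same order. For the combination against CK the 4 called became 9 without anti-PD-1 tumor 1, beside 24.4% of all genes in place of 17.9%. The receptors of the cleavage fragments C3a and C5a did not pass the test, with averaged log2 changes of 0.13 for C3ar1, 0.07 for C5ar1 and 0.07 for C5ar2. Factor D (Cfd), the adipocyte-derived protease that cleaves factor B, held 1111 counts in CK tumor 3 and 0 to 84 in the other tumors, beside 210 counts of Adipoq in CK tumor 3 and 0 to 19 elsewhere.

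**Figure D4:**
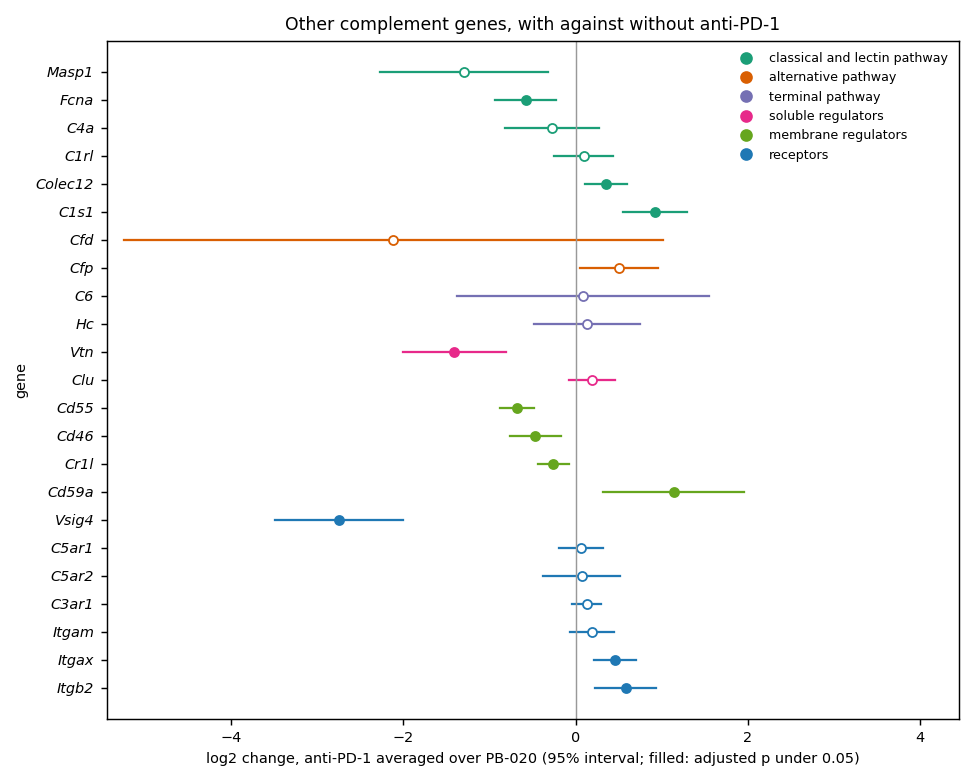
Log2 change with against without anti-PD-1, averaged over PB-020, of other complement genes tested (points, with 95% intervals as lines), colored by role, with filled points at an adjusted p under 0.05. C1s1 (0.92) and the integrin chains lie to the right of 0, and Vsig4 (-2.75), Vtn (-1.41) and Cd55 (-0.68) to the left.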

How the data were processed

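Total RNA of 12 MC38 tumors was sequenced from both ends for 150 bases. Reads were aligned by the authors with default Bowtie2, and RSEM gave a value per gene. The submitters' processing notes name Bowtie2, HISAT and GRCm38.p6. The annotation and the versions are not given in the sources used here. The deposited expected counts of RSEM are estimates without normalization (91% whole). FPKM values were scaled by the authors to gene length and library total, and TPM values were scaled by the authors to one total per library. TPM was not used for any result. Group averages by the authors were not used.

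Expected counts were rounded to whole numbers and filtered with filterByExpr (minimum count 10), which left 13563 of 18211 genes. The quasi-likelihood test of edgeR 4.0.16 (R 4.3.3, TMM scaling, robust, 4 group means, two-sided) was fitted to all 12 libraries, with Benjamini-Hochberg adjustment over all genes. Levels are the deposited FPKM. The computation was tested on simulated data. Depth was 16545394 to 17217035 expected counts, so that counting error matters mainly for C2 and other low genes. Gene positions are from RefSeq, which matched 18091 IDs (99.3%).

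All members, and every other complement gene called in a comparison with CK or in the average over PB-020, are named, except where a gene is not reported here. For likeness the 3 genes with the highest r were found for each member. The members, gene lists and alternatives were chosen with earlier results of these data known. The alternatives were DESeq2 1.42.0, limma 3.58.1 on log2(FPKM + 1) and log2(FPKM + 0.1), no filter, a strict filter (50 counts in 3 libraries), library size alone, the replicate number as a block, fits of only the groups compared, the per-gene test of the study's methods (fold change over 1.5 and p under 0.05 on FPKM) and each library left out. Leaving out CK tumor 3 and anti-PD-1 tumor 1 together was chosen after seeing the data.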

Additional observations from a re-analysis of the deposited data

How the results depend on the processing

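Depth limits C2, the rarest member, and the low regulators Vsig4, Vtn and Cd59a. With 3 tumors a group, the calls of the members depended on which libraries set the spread. No member was called in PB-020 against CK, in the combination against anti-PD-1 or in the interaction under any alternative run. The interaction was followed for C2 and for its lowest (C4b) and highest (C3) member, and the other comparisons for all 9. The values below are those that changed side, sign or size, and the cause of each was not tested unless fewer samples or genes are named.

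The calls of the members with DESeq2 were 1 for anti-PD-1 against CK, 1 for the combination against CK, 1 for the combination against PB-020 and 2 for the average over PB-020. All of these were raised, beside 6.72%, 10.5%, 4% and 13.2% of all genes raised in the same order. With only the groups compared the member calls were 1 for the combination against CK and 5 for it against PB-020, beside 11.4% and 6.14% of all genes raised. With the per-gene test of the study's methods they were 1 and 4, beside 3.71% and 3.51% of all genes raised. Without CK tumor 3 and anti-PD-1 tumor 1 the member calls were 1 for anti-PD-1 against CK, 6 for the combination against CK, 5 for it against PB-020 and 5 for the average. All genes raised were then 1.73%, 11%, 6.03% and 11.3% in the same order. With 1 library left out the member calls ranged from 0 to 1, from 0 to 1, from 0 to 2 and from 0 to 5 in these 4 comparisons. All genes raised then ranged from 0.473% to 6.81%, from 2.39% to 12.3%, from 0% to 4.41% and from 7.3% to 13.4%. The calls of other complement genes for PB-020 against CK were 1 with the per-gene test, beside 0.829% of all genes. For anti-PD-1 against CK (3 called) they were 5 with DESeq2, 1 with the strict filter, 0 with only the groups compared and 1 with the per-gene test. All genes called were 12.6%, 9.79%, 0.0226% and 3.46% in the same order. For the combination against CK (4 called) the other complement genes called were 8 with DESeq2, 2 with the strict filter and 8 with only the groups compared. Without CK tumor 3 and anti-PD-1 tumor 1 they were 9. All genes called were 20.9%, 20.7%, 22.5% and 20.6% in the same order. With 1 library left out the other complement genes called ranged from 1 to 5 for anti-PD-1, from 3 to 9 for the combination and from 6 to 15 for the average (12 called). All genes called then ranged from 0.996% to 13.8%, from 6.28% to 24.4% and from 15.2% to 26.8%.

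Without CK tumor 3 and anti-PD-1 tumor 1, the log2 change turned sign for PB-020 against CK to 0.014 (C1qb), 0.082 (C1ra), 0.31 (C2), 0.20 (C4b), 0.63 (C3), 0.53 (Cfb), 0.39 (Serping1), for anti-PD-1 against CK to -0.035 (C1qa), -0.11 (C1qb), -0.17 (C1qc), -0.11 (C4b), for the combination against CK to 0.17 (C4b), for the combination against anti-PD-1 to 0.34 (C1qa), 0.33 (C1qc), 0.084 (C1ra), 0.90 (C2), 0.27 (C4b), 0.29 (Cfb), 0.72 (Serping1), for the average over PB-020 to -0.071 (C4b), for the interaction to 0.59 (C2), 0.069 (C4b). With limma on log2(FPKM + 1) it turned sign for the combination against anti-PD-1 to 0.045 (C1qa), 0.037 (C1qc), 0.10 (C2), 0.018 (Serping1), for the combination against PB-020 to 0.047 (C4b), for the interaction to 0.15 (C2). With limma on log2(FPKM + 0.1) it turned sign for the combination against anti-PD-1 to 0.046 (C1qa), 0.037 (C1qc), 0.19 (C2), 0.024 (Serping1), for the combination against PB-020 to 0.061 (C4b), for the interaction to 0.24 (C2), 0.0079 (C4b). With library size alone C3 had -0.00731 for the combination against anti-PD-1. With each library left out in turn, or the pair, the log2 change changed sign for these members. For PB-020 against CK the values were -0.18 to 0.014 (C1qb), -0.42 to 0.082 (C1ra), -0.40 to 0.31 (C2), -0.43 to 0.20 (C4b), -0.67 to 0.63 (C3), -0.73 to 0.53 (Cfb), -0.48 to 0.39 (Serping1). For anti-PD-1 against CK the values were -0.14 to 0.36 (C1qa), -0.20 to 0.23 (C1qb), -0.27 to 0.22 (C1qc), -0.45 to 0.51 (C4b), -0.040 to 1.89 (C3). For the combination against CK the values were -0.035 to 0.16 (C1qc), -0.37 to 0.17 (C4b). For the combination against anti-PD-1 the values were -0.18 to 0.34 (C1qa), -0.056 to 0.38 (C1qb), -0.17 to 0.33 (C1qc), -0.35 to 0.084 (C1ra), -0.49 to 0.90 (C2), -0.58 to 0.27 (C4b), -0.36 to 0.97 (C3), -0.46 to 0.29 (Cfb), -0.75 to 0.72 (Serping1). For the combination against PB-020 the values were -0.35 to 0.25 (C4b). For the average over PB-020 the values were -0.025 to 0.22 (C1qc), -0.25 to 0.24 (C4b). For the interaction the values were -0.44 to 1.02 (C2), -0.54 to 0.40 (C4b), -0.61 to 1.305 (C3).

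For deviations from the group means, samples of different groups with the same replicate number had r from -0.21 to 0.29 over 18 pairs. Those with different numbers had r from -0.22 to 0.36 over 36 pairs. No pairing by number was seen in this measure over all genes tested, which cannot exclude one that touches few genes. With the replicate number as a block, 1 other complement gene was called for anti-PD-1 against CK in place of 3, beside 6.41% of all genes in place of 8.26%. With this replicate block the log2 change was 0.010 for C1qa, 0.0092 for C1qc and 0.025 for C2 in the combination against anti-PD-1, 0.051 for C4b in the combination against PB-020 and 0.12 for C2 in the interaction, each of opposite sign to the value reported.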
